A study of Mus musculus with 83 samples.

Results

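Reads of Y RNA and 7SK, a pair of non-coding RNA families transcribed by RNA polymerase III, were examined in small RNA libraries of mouse embryonic stem cells (ESCs) before and after deletion of *Dnmt1*, in AGO2 immunoprecipitates and in primordial germ cells (PGCs). The members were all features of the deposited table named exactly Y_RNA or 7SK. There were 355 of them among 32101 features, 24 named Y_RNA and 331 named 7SK. Only 4 reached the level at which single copies are described here, 10 RPM (reads per 1000000 reads of the library) in at least 3 time-course libraries: the Y RNA genes Rny1 and Rny3, a Y_RNA copy inside *Ralgapb*, and the 7SK gene Rn7sk. These 4 held nearly all reads of the families, and every value below is a level of short reads of 20 to 24 nt placed on the gene, not of the full-length RNA.

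Y RNAs are short hairpin RNAs whose ends pair into a stem that is bound by the Ro60 protein (the product of *Trove2*), while the La protein (*Ssb*) binds the stretch of uridines at the end. They take part in RNA quality control and have been implicated in the start of DNA replication, and they are a well-known source of short fragments in cells and body fluids. 7SK is an abundant nuclear RNA that, with Hexim1, Larp7 and Mepce, holds the kinase P-TEFb (Cdk9 with Ccnt1 or Ccnt2) in an inactive state and so restrains transcription elongation by RNA polymerase II. Both families have left many partial copies in mammalian genomes.

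The study asked how small RNAs respond when DNA methylation is lost. ESCs, of E14 background by the labels and of strain C57BL/6 by the study's methods, with both *Dnmt1* alleles flanked by loxP sites (Dnmt1 loxP/loxP), grown in serum and LIF with or without a layer of feeder cells, were the control, and the same cells after Cre recombinase had been activated with tamoxifen were the Dnmt1 KO. Total small RNA was sequenced on days 1, 3, 6, 9, 11 and 25 with 3 libraries per genotype and day (36 libraries), AGO2 immunoprecipitates (AGO2 IP) with 4 libraries per genotype, and PGCs sorted for Oct4-GFP as 1 library each for female and male embryos of E13.5 and E14.5 (E for embryonic day). Single libraries labelled "none" of each genotype, and 33 libraries with an R1 suffix, complete the 83. The control shares the floxed alleles with the KO, and the AGO2 IP carries no day in its labels (the study's text gives day 9).

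Groups followed the sample titles, with which the genotype tags disagree for the AGO2 IP, the "none" libraries and the R1-suffixed libraries of days 1 to 9, and the PGC libraries carry an ESC tag. Depth was 521066 to 6239008 reads in the time course, 1152390 to 25422978 in the AGO2 IP, 1734576 to 3435993 in the PGCs without suffix, and 57155 (control) and 9830 (Dnmt1 KO) in the "none" libraries. The *Dnmt1* gene gave 48.2 to 56.5 RPM in control and 48.8 to 63.0 RPM in Dnmt1 KO on day 9, 23.1 to 35.1 and 41.6 to 48.0 RPM on day 6, and 29.9 to 32.0 and 18.1 to 25.6 RPM on day 11, so its direction differed between days and short reads did not check the deletion. The 11 miRNA markers of ESCs summed to 110776 to 209743 RPM in the time course and to 12188 to 24376 RPM in PGCs. The 5 measured markers of fibroblasts or feeder cells, of which 1 was at 0 throughout, summed to 954 to 22910 RPM in the time course and to 547 to 810 RPM in PGCs. All 33 R1-suffixed libraries were left out of the comparisons. The unsuffixed ESC library of the same name held 2.43 to 3.25 times as many reads in all 30 pairs (median 3.13), and nothing shows that these ESC libraries are separate samples. For the 3 PGC pairs the ratio was 1.31 to 49.4 (median 24.6). The E14.5 male pair differed in content, with 326 RPM of 7SK without suffix and 36.1 RPM with it. Reads outside miRNA features were 80.8 and 62.3% of its totals. What the R1 suffix means is not in the labels.

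The sequences of the 4 copies show which of them a read of 20 to 24 nt can tell apart. All are given 5′ to 3′ on the gene's own strand in the NCBIM37 build that the authors mapped to. Rny1 (chr6:47738068-47738179, minus strand, 112 nt) and Rny3 (chr6:47731623-47731724, plus strand, 102 nt) are neighbours between *Ezh2* and *Pdia4*, and their names come from the same order of genes in RefSeq (GRCm38.p6). The third Y_RNA copy (chr2:158313338-158313423, plus strand, 86 nt) lies in an intron of *Ralgapb* on the same strand. Capitals mark the run of 24 bases that Rny1 shares with the *Ralgapb* copy, and, in Rny3, the longest run it shares with Rny1 (12 bases).
Rny1: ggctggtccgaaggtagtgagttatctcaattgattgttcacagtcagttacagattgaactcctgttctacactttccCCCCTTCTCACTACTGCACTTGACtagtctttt
Ralgapb Y_RNA copy: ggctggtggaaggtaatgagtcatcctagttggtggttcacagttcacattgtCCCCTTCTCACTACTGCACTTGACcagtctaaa
Rny3: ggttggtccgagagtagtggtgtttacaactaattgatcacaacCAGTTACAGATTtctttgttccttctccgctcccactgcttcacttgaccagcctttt

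Rny1 and Rny3 were identical at 72.3% of aligned positions, yet shared no run as long as a read, so that a perfectly matching read of at least 20 nt fits only 1 of them. Of the 83 windows of 20 bases in Rny3, 55 (66.3%) occurred once in the genome, and none of its 5 other matching loci was an annotated copy. In Rny1 38 of 93 windows (40.9%) were single in the genome, those starting at bases 1 to 7, 52 to 76 and 88 to 93. Its other windows matched 15 further loci, 7 of them annotated Y_RNA copies, and a read from the shared 24-base run can be placed on Rny1 or on the *Ralgapb* copy. The treatment of reads with several matches and the use of strand by the authors are not given in the sources used here.

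Rn7sk (chr9:78023110-78023440, minus strand, 331 nt) lies beside *Ick*, by the order of genes in RefSeq. Only 67 of its 312 windows of 20 bases (21.5%) were single in the genome, all starting between bases 228 and 297, while the others matched 89 further loci, 73 of them annotated 7SK copies. The last part of the gene, bases 201 to 331, is shown since reads can be assigned to Rn7sk alone there, and the capitals mark bases 228 to 316, the span covered by those single windows.
Rn7sk bases 201 to 331: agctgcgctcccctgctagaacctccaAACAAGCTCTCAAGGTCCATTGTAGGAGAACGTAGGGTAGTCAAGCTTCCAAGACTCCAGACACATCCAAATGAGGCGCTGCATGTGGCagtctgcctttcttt

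Over all 83 libraries Rny1 received 973967 reads, 88.55% of all Y_RNA reads. Rny3 received 123527 (11.23%) and the *Ralgapb* copy 2194. Of the 24 Y_RNA copies, which lay on 12 chromosomes and spanned 77 to 124 nt, 10 had no read at all. The 21 copies not described singly held 218 reads together, at most 65 in any of them. A 20-base window of Rny1 or Rny3 occurred in 7 other Y_RNA copies, the *Ralgapb* copy among them. The copy with the 65 reads shared a run of 61 bases with Rny1.

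Rn7sk held 13464 reads, 92.96% of the 7SK reads. The 7SK name was spread over 20 chromosomes, and 249 of its 331 copies had no read. The largest of the others, a copy in *Zfp318* (chr17:46540824-46541147, plus strand), held 701 of the remaining 1019 reads and reached at most 9.60 RPM, just under the level of 10 RPM. The next copies below it were a 7SK copy in *Sec14l1* with at most 5.38 RPM and a Y_RNA copy in *Fpgt* with at most 5.69 RPM. The *Ralgapb* copy lay just above, at 10 RPM or more in 31 of 36 time-course libraries and at most 24.6 RPM. Rny1, Rny3 and Rn7sk passed 10 RPM in all 36. Since 132 of the 7SK copies and 6 of the Y_RNA copies overlap another feature, some of the remaining reads may belong to host genes.

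The ESC levels of the copies differed widely and each had its own course over the days. A fold between copies is given nowhere, because reads of 20 to 24 nt were sampled from genes of unequal length and folding. The levels below are in RPM, as the mean ± SD of 3 libraries.

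Rny1 was highest on day 1, with 11267 ± 921 RPM in Dnmt1 KO and 9841 ± 651 RPM in control. It was lowest on day 9, with 4159 ± 294 RPM (control) and 3219 ± 78.5 RPM (Dnmt1 KO). The 12 groups formed an order in which the ranges of most neighbours overlapped, and 3 neighbouring pairs were separate: Dnmt1 KO above control on day 1, Dnmt1 KO on day 6 above control on day 9, and control above Dnmt1 KO on day 9.

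Rny3 was also highest on day 1, at 974 ± 46.1 RPM (Dnmt1 KO) and 970 ± 41.9 RPM (control), and lowest in Dnmt1 KO on day 9, at 439 ± 23.8 RPM. Its control level on day 25, 755 ± 45.0 RPM, stood next to that of the control on day 3 (744 ± 65.9 RPM). The *Ralgapb* copy stayed between 7.96 ± 1.74 RPM (control, day 11) and 19.5 ± 4.50 RPM (Dnmt1 KO, day 25), and every group overlapped its neighbour in the order of levels.

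Rn7sk ran the other way. It was lowest in control on day 1, with 45.95 to 54.9 RPM in the 3 libraries, and highest on day 25, with 131 to 167 RPM in control and 140.2 to 156 RPM in Dnmt1 KO. Between these days the group means lay from 64.0 to 98.0 RPM. A library that stood apart was replicate 1 of Dnmt1 KO on day 3, with 35.8 RPM of Rn7sk against 83.8 and 84.8 RPM in its companions and 457 RPM of Rny3 against 796 and 762 RPM.

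**Figure D1:**
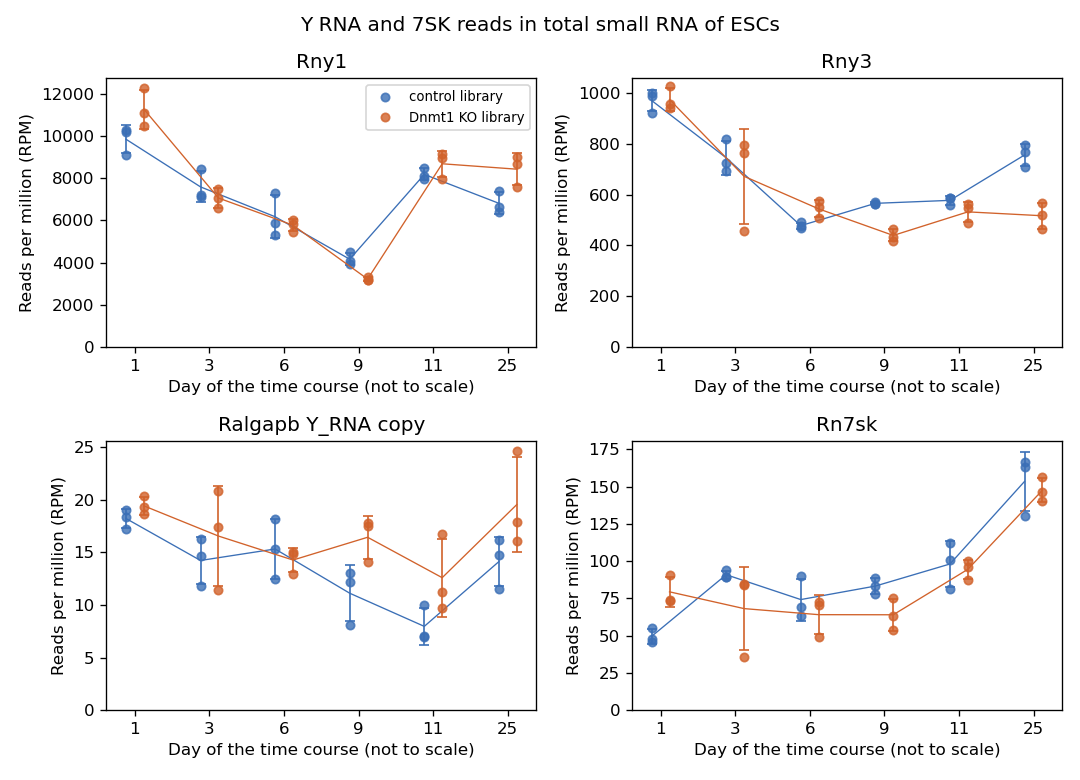
Level of the 4 copies in the 36 time-course libraries, in RPM (linear axis from 0), by day (spaced evenly, not to scale); points are single libraries, lines join group means and bars give the SD of 3 libraries. Rny1 falls to 3219 RPM in Dnmt1 KO on day 9 and is higher again on days 11 and 25, while Rn7sk is highest on day 25.

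Drift in the control cells came first, since it shows how far the families move without deletion. In control cells the Y_RNA sum was lower on day 25 than on day 1, with a log2 fold change of −0.61 ± 0.09 (standard error, limma with Benjamini-Hochberg adjustment over all 2548 names tested, adjusted p = 2.75e-07), and lower on day 11 than on day 1 (−0.28 ± 0.09, adjusted p = 0.0128), a call that was lost with a replicate block (−0.29) and in the R1-suffixed libraries (−0.20). The 7SK sum was higher, by 1.03 ± 0.19 on day 11 (limma, adjusted p = 2.78e-05) and by 1.53 ± 0.19 on day 25 (adjusted p = 5.86e-09), a ratio of mean RPM of 3.14 on day 25. In the R1-suffixed libraries the 7SK call for day 11 was lost as well (0.74). Of all names, 34.8% passed the same test for day 11 and 50.2% for day 25, so these families moved on days when a large share of the table did.

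Among single copies, Rny1 (−0.63 ± 0.09), Rny3 (−0.45 ± 0.12) and Rn7sk (1.52 ± 0.19) passed between control day 25 and day 1, where 50.5% of 2582 features did, and the *Ralgapb* copy (−0.44 ± 0.23, adjusted p = 0.102 by limma) did not. Day and library batch cannot be told apart in this contrast, and the feeder-cell markers moved with it, from 9177 to 11333 RPM in control on day 1 to 954 to 1050 RPM on day 25. Their part in the result was not tested. As in all bulk samples, fewer cells of a type and less RNA per cell cannot be told apart.

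The question put to the time course was whether Dnmt1 KO libraries differed from control libraries of the same day. Y RNA reads fell in Dnmt1 KO on days 6 and 9 and rose on day 25, with ratios of mean RPM of 0.950, 0.776 and 1.18, and no call was made on days 1, 3 and 11. The day 6 call held after TMM scaling but not with library totals alone (−0.06) or in the R1-suffixed libraries (−0.15). For 7SK no day gave a call. The values per day follow, first for Y RNA.

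On day 9 the 3 control libraries had 4083, 3911 and 4483 RPM of Rny1, and the 3 Dnmt1 KO libraries 3195, 3155 and 3306 RPM. Every Dnmt1 KO library was below every control library. The log2 fold change was −0.31 ± 0.09 for Rny1 (limma, adjusted p = 0.0147), as for the Y_RNA sum (−0.31 ± 0.09, adjusted p = 0.0118). Rny3 had 562, 569 and 564 RPM in the controls and 465, 434 and 418 RPM after deletion, again without overlap, but its log2 fold change of −0.31 ± 0.12 did not pass (limma, adjusted p = 0.0767). On this day 18.1% of names and 18.8% of features were called. The call for the sum rested on control replicate 3, without which it was lost (−0.26), as it was without the filter on low values (−0.31) and in the R1-suffixed libraries (−0.32), and the call for Rny1 was also lost without Dnmt1 KO replicate 1 (−0.29). Rny3 on day 9 passed the threshold when libraries were scaled by their totals alone (−0.37).

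On day 6 Rny1 had 5889, 5311 and 7312 RPM in control against 6038, 5468 and 5803 RPM in Dnmt1 KO, so the groups overlapped in RPM. The call came after TMM scaling (a trimmed mean of log ratios that sets each library to the bulk of its features): −0.30 ± 0.09 for Rny1 (limma, adjusted p = 0.0137) and −0.28 ± 0.09 for the Y_RNA sum (adjusted p = 0.0167), on a day when 24.4% of names and 25.14% of features were called. With library totals alone the sum differed by −0.06, while the median of all names stood at 0.24. The call was lost without Dnmt1 KO replicate 2 (−0.24 for the sum), without control replicate 3 (−0.23) or without the filter on low values (−0.28). Rny3 differed by −0.03 ± 0.12 (0.18 with library totals alone) and was not called.

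On day 25 Rny1 and Rny3 moved apart. Rny1 rose in Dnmt1 KO, from 6402, 6613 and 7403 RPM in control to 9022, 7560 and 8681 RPM, a log2 fold change of 0.37 ± 0.09 (limma, adjusted p = 0.0015). Rny3 fell, from 766, 795 and 706 RPM to 518, 465 and 567 RPM, a log2 fold change of −0.48 ± 0.12 (adjusted p = 0.0017 by limma). Neither gene's groups overlapped. The Y_RNA sum, most of which is Rny1, rose by 0.32 ± 0.09 (limma, adjusted p = 0.00501). On day 25 35.1% of names and 35.7% of features were called, so calls were common in the table. Without Rny1 the rest of the Y_RNA sum differed by −0.44. That rest is mostly Rny3, so the value repeats the result of Rny3.

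On the other days the Y_RNA sum differed by 0.08 ± 0.09 on day 1, −0.08 ± 0.09 on day 3 and 0.17 ± 0.09 on day 11 (limma, adjusted p = 0.760, 0.706 and 0.332), on days when 3.22%, 6.32% and 8.05% of names were called. Neither did any of the 4 copies pass on these days, where 3.95%, 6.35% and 8.4% of features did. On day 1 the Rny1 levels of Dnmt1 KO (10447 to 12263 RPM) lay above those of control (9092 to 10262 RPM), at a log2 fold change of 0.10 ± 0.09 after TMM scaling.

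Averaged over the 6 days, the Y_RNA sum was not called (−0.02 ± 0.04, with a 95% interval of −0.09 to 0.06), nor was Rny1 (0.00 ± 0.04). Rny3 was lower in Dnmt1 KO, at −0.18 ± 0.05 (limma, adjusted p = 0.0046), with estimates below 0 on all 6 days after TMM scaling and above 0 on days 1 and 6 with library totals alone. The *Ralgapb* copy was higher by 0.28 ± 0.09 (adjusted p = 0.0204 by limma), with 0.60 ± 0.23 on day 9, 0.67 ± 0.23 on day 11 and 0.50 ± 0.23 on day 25, none of which passed alone. Its call was lost without Dnmt1 KO replicate 3 of day 25 (0.24). For the mean of days 26.7% of names and 27.1% of features were called.

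Whether the effect itself changed between days was tested in the same model. The Y_RNA effect on day 25 exceeded that on day 9 by 0.63 ± 0.13 (limma, adjusted p = 0.000225), a contrast chosen after the daily values were seen, in which 25.24% of names were called. For Rny1 the change was 0.68 ± 0.13 (limma, adjusted p = 9.96e-05), and for Rny3 it was −0.18 ± 0.17 (adjusted p = 0.492), with 26.3% of features called. Against day 1, the Y_RNA effect differed by 0.09 ± 0.13 on day 11 (limma, adjusted p = 0.822) and by 0.23 ± 0.13 on day 25 (adjusted p = 0.206), where 8.05% and 19.1% of names were called.

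Feeder-cell markers differed between the genotypes on days 6, 9 and 25, but not on these days only. They summed to 10984 to 14913 RPM in control and 20919 to 22910 RPM in Dnmt1 KO on day 9, to 6132 to 7144 and 11242 to 12515 RPM on day 6, and to 954 to 1050 and 1247 to 1292 RPM on day 25. The markers of blood cells (5 of 5 measured) summed to 1479 to 1778 RPM in control and 2221 to 2632 RPM in Dnmt1 KO on day 6, to 915 to 1025 and 2066 to 2353 RPM on day 9, and to 990.3 to 1015 and 734 to 828 RPM on day 25. Those of ESCs summed to 111088 to 114783 and 130504 to 139218 RPM on day 6, to 119968 to 126658 and 111274 to 112581 RPM on day 9, and to 176087 to 209743 and 136619 to 141598 RPM on day 25. Marker sums also separated the genotypes on days without a Y_RNA call. Feeder-cell markers summed to 10331 to 10698 RPM in control and 15501 to 17839 RPM in Dnmt1 KO on day 3. On day 11 these sums were 10596 to 11209 and 12417 to 14632 RPM, and on day 1 they overlapped. ESC markers did not overlap on days 1, 3 and 11, nor did blood-cell markers on days 1 and 11. The part of these markers in the Y RNA results was not tested.

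**Figure D2:**
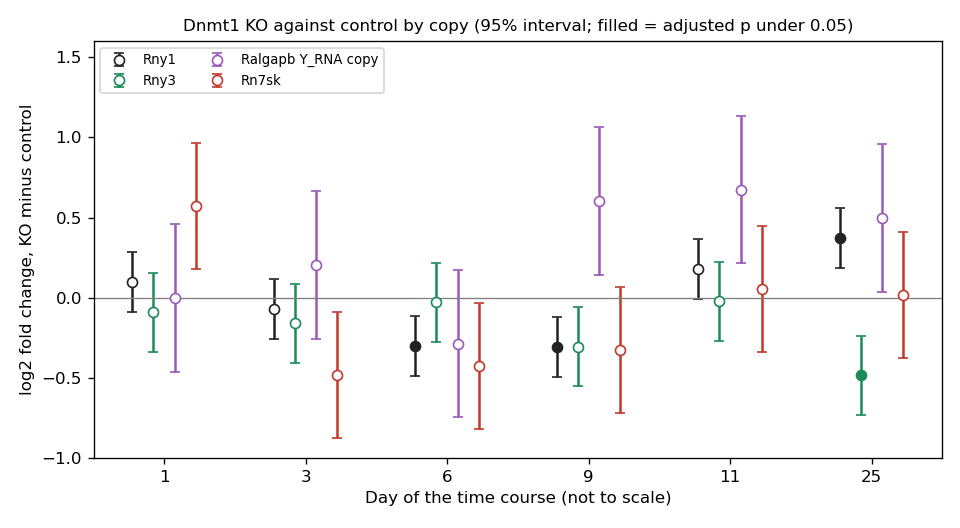
Log2 fold change of Dnmt1 KO against control (limma, after TMM scaling) for the 4 copies on each day, with 95% intervals; filled points passed an adjusted p of 0.05. Rny1 is below 0 on days 6 and 9 (−0.30 and −0.31) and above it on day 25 (0.37), where Rny3 is at −0.48. Scaled by library totals alone, Rny3 on days 1 and 6, the Ralgapb copy on day 1 and Rn7sk on days 11 and 25 lie on the other side of 0.

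Estimates for 7SK were less precise than those for Y_RNA, with standard errors of 0.19 against 0.09 on each day. The largest estimate was on day 1, where control libraries had 50.4, 58.0 and 48.2 RPM and Dnmt1 KO libraries 95.2, 82.0 and 77.3 RPM. The groups did not overlap, but the log2 fold change of 0.60 ± 0.19 did not pass (limma, adjusted p = 0.0676). It did pass with library totals alone (0.69), with a replicate block (0.60) and when day 1 was fitted by itself (0.59).

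On days 3 and 6 the estimates had the other sign, −0.49 ± 0.19 (limma, adjusted p = 0.128) and −0.45 ± 0.19 (adjusted p = 0.0835). Day 3 leaned on the library that stood apart: without Dnmt1 KO replicate 1 the estimate was −0.05, and with either companion left out it passed (−0.67 and −0.70). On days 9, 11 and 25 the estimates were −0.33, 0.06 and −0.01, each ± 0.19, with a 95% interval on day 25 of −0.39 to 0.37. Averaged over days, 7SK differed by −0.10 ± 0.08 (limma, adjusted p = 0.351). The effect on day 11 differed from that on day 1 by −0.54 ± 0.27, and that on day 25 by −0.60 ± 0.27 (limma, adjusted p = 0.293 and 0.110). The latter passed with library totals alone (−0.77).

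The share of Rny3 among the reads of Rny1 and Rny3 does not depend on how libraries are scaled to each other. In the time course it ran from 5.16 to 12.7%. On day 25 it was 10.7, 10.7 and 8.71% in control and 5.43, 5.79 and 6.13% in Dnmt1 KO, without overlap. The log2 ratio of Rny3 to Rny1 differed by −0.86 (Dnmt1 KO minus control), and its exact two-sided permutation p of 0.1 is the smallest that 3 against 3 libraries allow (adjusted p = 0.225 over the 9 tests of this ratio). On day 6 the share was higher in Dnmt1 KO (8.61 ± 0.10%) than in control (7.28 ± 0.97%), also without overlap, with the same exact permutation p of 0.1. The other days overlapped, and on day 9 they were 12.1, 12.7 and 11.18% in control and 12.7, 12.1 and 11.24% in Dnmt1 KO. The mean over days differed by −0.18 (permutation p = 0.0397, adjusted p = 0.179), which did not survive the correction. The daily values behind it were −0.19, −0.09, 0.27, 0.00 and −0.20 on days 1, 3, 6, 9 and 11, beside −0.86 on day 25.

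In the AGO2 IP the balance was reversed. AGO2 is an Argonaute protein that can bind miRNAs, and reads in its immunoprecipitate come from RNA bound to it or recovered with it. Rny3 held 66.4 to 73.2% of the reads of the pair in the 4 control immunoprecipitates (69.5 ± 2.90%) and 61.4 to 71.5% in the 4 of Dnmt1 KO (67.0 ± 4.74%), against 11.18 to 12.7% in total small RNA of day 9. The ratio of Rny3 to Rny1 was 15.8-fold higher in the AGO2 IP than in day-9 total RNA, 3.98 on the log2 scale (exact permutation within genotypes, two-sided p = 0.000816, the smallest that the 1225 arrangements can give, adjusted p = 0.00735). All 8 immunoprecipitates exceeded all 6 total libraries. Between the genotypes the AGO2 ratio differed by −0.16 (exact permutation p = 0.429).

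**Figure D3:**
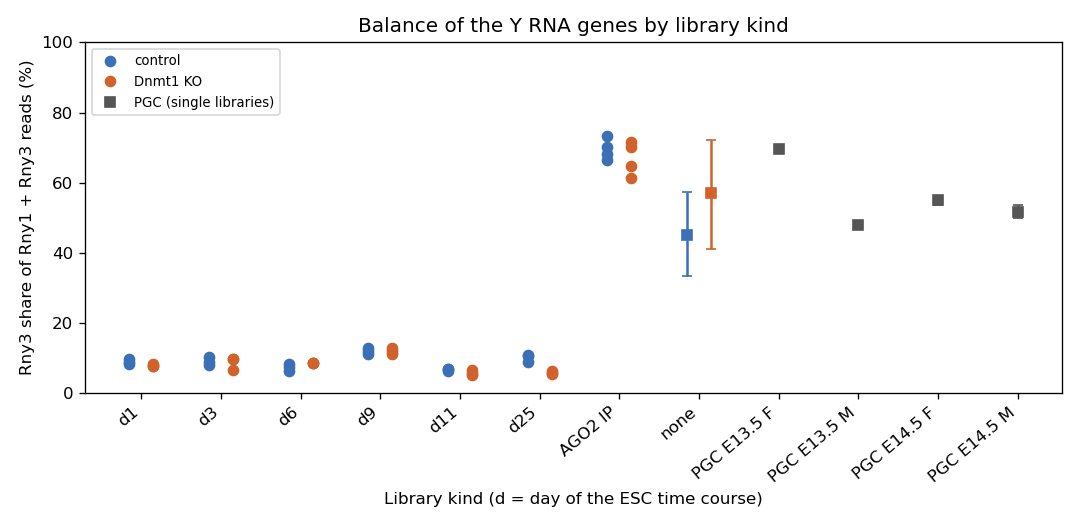
Share of Rny3 among reads of Rny1 and Rny3 in percent, for the time course, the AGO2 IP, the libraries labelled "none" and the PGC libraries; round points are single libraries of replicated groups, and squares are single libraries with exact 95% binomial intervals. The share is 5.16 to 12.7% in total RNA of ESCs and 61.4 to 73.2% in the AGO2 IP.

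Pull-down and library batch cannot be told apart in this comparison, and the "none" libraries bear on it. Their shares of Rny3 were 45.1% in control (32 of 71 reads of the pair, exact 95% binomial interval 33.2 to 57.3%) and 57.1% in Dnmt1 KO (24 of 42 reads, 40.96 to 72.3%), also above total RNA. What they lacked is not in the labels; a pull-down with beads but no serum is among the study's controls. They held 1242 RPM of Y_RNA in control (71 reads) and 4374 RPM in Dnmt1 KO (43 reads), above the RPM of the AGO2 IP, at totals of 57155 and 9830 reads. Intervals of this kind cover counting error only.

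In control immunoprecipitates Rny3 had 164, 159, 159.5 and 154 RPM, and Rny1 had 69.6, 80.5, 58.5 and 71.9 RPM. In Dnmt1 KO immunoprecipitates Rny3 had 172, 172, 196 and 189.6 RPM and Rny1 had 68.5, 72.7, 123 and 103 RPM. Replicates 3 and 4 of Dnmt1 KO were above replicates 1 and 2 for both genes. In RPM every Dnmt1 KO library was above every control for Rny3, and so it was for the Y_RNA sum (240.4 to 318.7 RPM against 218.1 to 240.2 RPM in control), the opposite sign to the estimates after TMM scaling. After TMM scaling neither gene was called between the genotypes: Rny3 differed by −0.14 ± 0.17 (95% interval −0.53 to 0.24) and Rny1 by 0.02 ± 0.24 (−0.53 to 0.56), with adjusted p = 0.558 and 0.960 by limma. The Y_RNA sum differed by −0.21 ± 0.20 (limma, adjusted p = 0.467). With library totals alone it differed by 0.25 and Rny3 by 0.19, while the median of all names stood at 0.34, and neither was called. Of all names tested in the AGO2 IP 40.2% were called, and of all features 37.1%.

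Rn7sk was at the limit of detection in the AGO2 IP. It had 8, 8, 3 and 17 reads in the control libraries, which had 11497724 to 25422978 reads in all, and 1, 3, 0 and 7 reads in Dnmt1 KO, where the interval of the library without a read reaches 1.09 RPM (exact 95% Poisson). The *Ralgapb* copy had at most 1 read per library. Neither these copies nor the 7SK sum passed the filter on low values, so none was tested between the genotypes.

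Against total small RNA of day 9, with library totals alone, all 4 copies were lower in the AGO2 IP in both genotypes, as were most features. Rn7sk and the *Ralgapb* copy met the filter only through the total libraries. For them a lower level was fixed in advance, and their values are a description. Within the AGO2 IP 456 features passed a filter of the same kind, against 1564 here. Rny3 was lower by the smallest amount, −1.82 ± 0.14 in control and −1.27 ± 0.14 in Dnmt1 KO (limma, adjusted p = 5.52e-09 and 4.95e-07), a fall in mean RPM of 3.55-fold and 2.41-fold. Rny1 differed by −5.88 ± 0.21 and −5.16 ± 0.21 (limma, adjusted p = 3.57e-13 and 1.61e-12), 59.3-fold and 35.0-fold lower means. Rn7sk differed by −5.86 ± 0.28 and −5.22 ± 0.28, which understates it at so few reads, since its mean RPM was 177-fold and 75.1-fold lower. The median over all features was −3.44 in control and −3.33 in Dnmt1 KO, so Rny3 lay above the median and Rny1 and Rn7sk below it. In this contrast 90.2% (control) and 89.8% (Dnmt1 KO) of features were called.

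The direction of Rny3 depends on the scaling. The AGO2 IP is mostly miRNA: reads outside miRNA features were 2.65 to 2.92% of the total in control and 3.66 to 4.22% in Dnmt1 KO, against 47.3 to 62.6% in the time course. After TMM scaling Rny3 was higher in the AGO2 IP (1.95 in control and 1.74 in Dnmt1 KO), as it was relative to reads outside miRNA features (2.44 and 2.39), and each of these values passed. Rny1 stayed lower under both (−2.11 and −2.15, then −1.62 and −1.51). So did Rn7sk, which had entered the fit only through the total libraries.

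For the sums by name, Y_RNA differed by −4.36 ± 0.15 in control and −3.75 ± 0.15 in Dnmt1 KO. Both values were past the threshold, where 90.1% and 89.7% of names were. The 7SK sum differed by −5.87 ± 0.29 and −5.31 ± 0.29, also past it. It met the filter only through the total libraries, so a lower value was fixed in advance. Relative to reads outside miRNA features the Y_RNA sum differed by −0.09 in both genotypes and was called in neither. The depletion differed between the genotypes by 0.61 ± 0.21 for Y_RNA (limma, adjusted p = 0.0786) and 0.56 ± 0.41 for 7SK (adjusted p = 0.383), and neither passed in a contrast where 10.4% of names did.

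**Figure D4:**
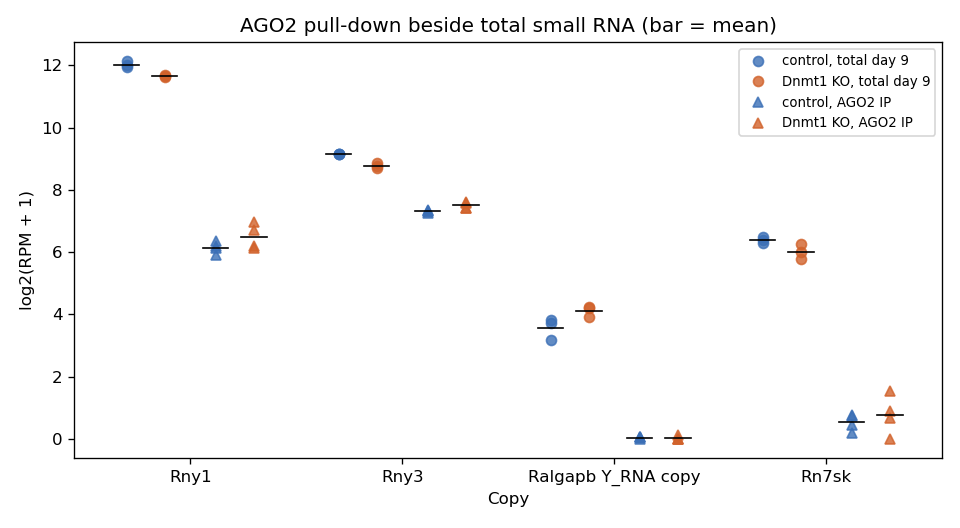
Levels of the 4 copies as log2(RPM + 1) in day-9 total small RNA (circles, 3 libraries per genotype) and in the AGO2 IP (triangles, 4 per genotype), scaled by library totals, with the group mean as a bar. On this scale the AGO2 IP differs from total RNA by −1.82 (control) and −1.27 (Dnmt1 KO) for Rny3 and by −5.88 and −5.16 for Rny1; after TMM scaling or relative to reads outside miRNA features Rny3 is higher in the AGO2 IP.

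In PGCs, the precursors of eggs and sperm, each sex and stage had 1 library, so values are given with no test and with exact 95% Poisson intervals that cover counting error. Rny1 was lower in all 4 PGC libraries than in any of the 18 control ESC libraries of the time course (3911 to 10262 RPM): 1123 RPM in E13.5 females (interval 1084 to 1163), 1308 RPM in E13.5 males (1267 to 1350), 720 RPM in E14.5 females (692 to 749) and 798 RPM in E14.5 males (756 to 841).

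Rny3 did not share this. It had 2584 RPM in E13.5 females (2525 to 2644) and 1203 RPM in E13.5 males (1163 to 1243), both above the highest control ESC library (999 RPM), and 877 and 856 RPM in females and males of E14.5, inside the ESC range of 467 to 999 RPM. The R1-suffixed libraries differed from these, with 1204 RPM in E13.5 females (1011 to 1422), 265 RPM in E13.5 males (152 to 431), below the ESC range, and 1259 RPM in E14.5 males (1199.6 to 1321), above it. In the libraries without suffix Rny3 therefore made up 69.7, 47.9, 54.9 and 51.8% of the reads of the pair in E13.5 females, E13.5 males, E14.5 females and E14.5 males, against 6.16 to 12.7% in control ESCs. Reads outside miRNA features were 59.9 to 87.4% of the total in PGCs.

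7SK had 22.4 RPM in E13.5 females (63 reads, interval 17.2 to 28.6) and 48.4 RPM in E13.5 males (144 reads, 40.8 to 56.9). In E14.5 females it had 344.9 RPM (1185 reads, 326 to 365) and in E14.5 males 326 RPM (566 reads, 299.97 to 354), in both sexes above the highest control ESC library (176 RPM). The R1-suffixed library of E14.5 males did not share the high level, with 36.1 RPM from 48 reads (26.6 to 47.9). Those of E13.5 had 0 reads of 7SK at totals of 114631 (females) and 60317 (males), which leaves levels of up to 32.2 and 61.2 RPM within the exact interval. Stage and library cannot be told apart.

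**Figure D5:**
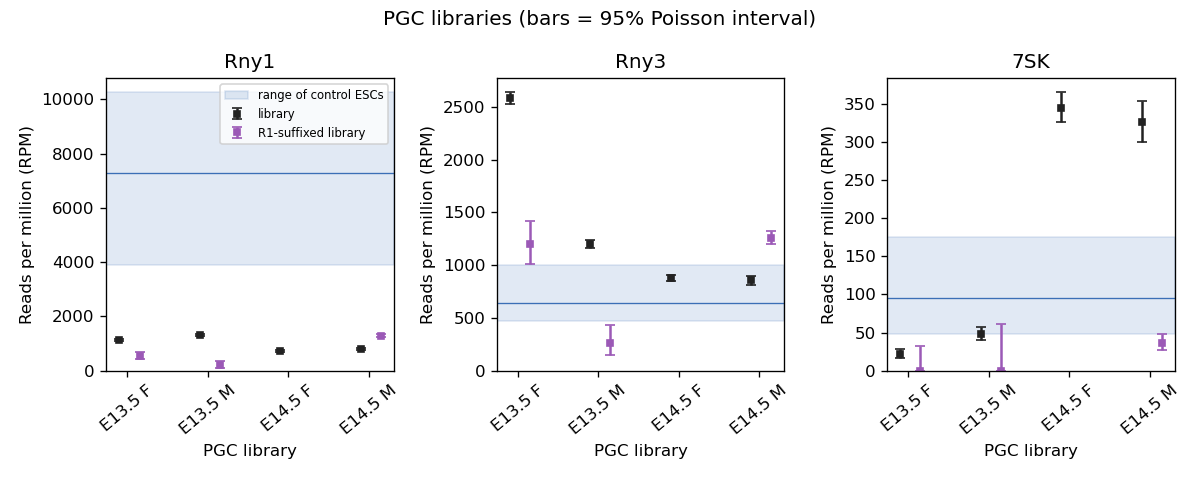
Rny1, Rny3 and the 7SK sum in single PGC libraries, in RPM (linear axes from 0), with exact 95% Poisson intervals; the band and line give the range and median of the 18 control ESC libraries. Rny1 lies below the band in all 4 libraries without suffix, and 7SK is above it in the E14.5 libraries without suffix but at 36.1 RPM in the R1-suffixed one of E14.5 males.

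Other RNAs of polymerase III and its relatives gave a frame for these values. Of 15 listed names 6 were in the table and 3 passed the filter: RNase_MRP, which processes ribosomal RNA, Vault, the RNA of the vault particle, and U6atac, of the minor spliceosome. RNase_MRP fell in Dnmt1 KO on days 6 and 9 (−0.37 ± 0.10 and −0.34 ± 0.10, limma, adjusted p = 0.0053 and 0.0151), although with library totals alone the day 6 value (−0.15) was not called, and Vault fell on day 11 (−0.50 ± 0.14, adjusted p = 0.016). No name of this list was called on days 1, 3 and 25, and with library totals alone Vault was called higher on day 6 (0.54). The median over the 3 names was −0.37 on day 6 against 0.04 over all names. U6, 5S_rRNA and RNaseP_nuc stayed below the filter, at no more than 9.48, 3.04 and 6.89 RPM in the time course.

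Of 35 other structural RNAs 26 were tested. After TMM scaling 5 rose and 0 fell in Dnmt1 KO on day 1, where 59 of all names rose and 23 fell (3.22% called), and 2 rose and 6 fell on day 6, against 266 and 356 of all names (24.4%). On day 9 4 rose and 4 fell, against 264 and 196 (18.1%), and on day 25 12 rose and 0 fell, against 416 and 479 (35.1%). With library totals alone the split was 7 up and 4 down on day 6 and 7 up and 0 down on day 25. The spliceosomal RNA U5 had 0.74 on day 1, −0.65 on day 6, −0.70 on day 9 and 0.40 on day 25, and the minor-spliceosome RNA U11 had 0.52, −0.67, −0.49 and 0.46, each of them called under both scalings. These names were chosen after their values were seen, and neither was called on day 3 (−0.25 for U5 and −0.22 for U11) or day 11 (0.02 and −0.06). In the AGO2 IP all 26 were lower than in day-9 total RNA in both genotypes with library totals. Their medians were −6.68 and −6.58, against −4.36 and −3.75 for the Y_RNA sum. After TMM scaling 26 and 25 of them were lower. With library totals RNase_MRP (−8.85 and −7.58) and Vault (−4.71 and −3.78) were lower as well. Only 2 of the 26, and neither RNase_MRP nor Vault, passed the filter within the AGO2 IP. The others entered this contrast only with the total libraries counted, so a lower level was largely fixed by the filter.

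Of 12 genes of partner proteins 5 passed the filter. Trove2 and Hexim1 stayed at or below 8.58 and 11.25 RPM, without passing it. Larp7, whose product binds 7SK, was called lower in Dnmt1 KO on days 3, 6, 9 and 25 (−0.50, −2.02, −1.50 and −0.93), and Ncl, the gene of nucleolin, on days 6 and 9 (−0.68 and −0.55). The mouse *Larp7* gene hosts the miR-302 cluster of ESC miRNAs, so reads counted for it include those miRNAs and are no measure of its mRNA. The short reads counted for Ncl (589 to 1501 RPM in the time course) are no measure of its mRNA either. What those reads come from was not tested. On days 1 and 11 no partner gene was called after TMM scaling, and none was called higher on any day.

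The names whose level followed the families most closely over the 12 group means of the time course were, for Y_RNA, Sp1 (Pearson r = 0.905), Stip1 (0.875), Sf3b1 (0.870), Nup98 (0.869) and Cad (0.857). For 7SK they were the histone gene Hist1h3h (0.965), Chst11 (0.945), Eef1b2 (0.942), the small nucleolar RNA SNORD51 (0.941) and Clasp1 (0.917). These are the best of 2547 names over 12 points that share libraries and days, and are given as a description.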

How the data were processed

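Small RNA was sequenced from TruSeq libraries of mouse ESCs and PGCs. According to their methods the authors trimmed reads (Trim Galore), mapped reads of 20 to 24 nt to NCBIM37 with Bowtie2 and quantified genes in SeqMonk. The versions recorded for these data are Trim Galore 0.3.5 and Bowtie2 2.2.9. The paper's methods name another version of Trim Galore and none of Bowtie2. The values the authors deposited are RPKM. Each was multiplied by the span of its feature in kb to give RPM. In every library 100% of the low values were whole multiples of 1 step (within 5% of it), which gave totals and reads.

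Members and lists were chosen with earlier results of these data known. RPM of features with the same name were summed. Names with at least 10 RPM in at least 3 libraries were tested by limma 3.58.1 (R 4.3.3, limma-trend) on log2(RPM + 1), so that fold changes of low features are understated, after TMM scaling (30% of ratios and 5% of levels trimmed). There were 2548 names and 2582 features in the time course, 453 and 456 in the AGO2 IP, and 1534 and 1564 in AGO2 IP against day-9 total RNA, where only library totals were used. Adjusted p-values are Benjamini-Hochberg values over all names or features of a fit, and those under 0.05 were called. All tests were two-sided. Values after ± are standard errors for fold changes and SDs for levels.

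The ratio of Rny3 to Rny1 was tested by permutation of libraries, exact except for the mean of days (100000 resamples within days). On simulated data for day 9, 98.9% of 92 names changed 2-fold among 1423 were recovered. No change smaller than 2-fold was simulated, and the simulated spread was set rather than estimated from these data. The recovery therefore does not bear on the smaller changes reported above. Labels do not say whether replicates are separate cultures, so p-values measure only the spread between these libraries. Same-numbered AGO2 libraries deviated together (r = 0.191 to 0.382 in all 4 pairs), but only 1 of the 4 correlated best with its own number. Whether the numbers are pairs is therefore not settled. The fit and the permutation of the ratio were unpaired, with the replicate block of the fit as an alternative. In the AGO2 IP that block was run for the sums by name only, not for single copies. Copies were described singly from 10 RPM in 3 libraries of the time course or AGO2 IP, or in 1 PGC library. Other names were those of the fixed lists and the 5 nearest in pattern per family. Alternatives covered scaling, pseudocount, filter, copies counted, each library left out, the replicate block and the R1-suffixed libraries.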

Additional observations from a re-analysis of the deposited data

Results flagged for a closer look

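The effect of Dnmt1 KO on the Y_RNA sum differed between day 25 and day 9 by 0.63 (limma, adjusted p = 0.000225), with −0.31 on day 9 and 0.32 on day 25. This interaction contrast was chosen after the daily values were seen, so its p-value is no independent support. In it 25.24% of names and 26.3% of features were called, and without Rny1 the rest of the sum, mostly Rny3, differed by −0.15. For Rny1 the difference was 0.68 (limma, adjusted p = 9.96e-05), and all 3 Dnmt1 KO libraries were below all controls on day 9 and above all of them on day 25. In the AGO2 IP of Dnmt1 KO 1 of 4 libraries had a read of the Ralgapb Y_RNA copy (1 read, 0.0868 RPM). This is under the levels that the exact intervals of the libraries without a read reach (1.09 RPM or more), so no difference was detectable at this depth. A check of this kind singles out about 1 group in 20 by chance.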

How the results depend on the processing

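Of the values of the Y_RNA and 7SK sums under alternatives other than leaving out a library, 206 kept their direction and side of the threshold, 15 changed sign, 8 gained a call, 13 lost one and 6 moved. With library totals alone 7SK on day 1 (0.69) and its effect on day 25 against day 1 (−0.77) gained a call, Y_RNA on day 6 lost it (−0.0645), and signs changed for 7SK on day 11 (−0.0434), the Y_RNA effect on day 11 against day 1 (−0.11), Y_RNA between AGO2 genotypes (0.25), Rny3 there (0.19), on day 1 (0.0058) and day 6 (0.18), Rny1 over days (0.0051), the Ralgapb copy on day 1 (0.0877) and Rn7sk on days 11 (−0.0427) and 25 (−0.0489). Median-ratio factors turned 7SK on day 25 (0.0306) and Y_RNA over days (0.0073). Without a filter more names were tested, and Y_RNA lost its calls on days 6 (−0.28) and 9 (−0.31) and in control on day 11 (−0.28).

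With the replicate block 7SK on day 1 gained a call (0.60) and Y_RNA in control on day 11 lost it (−0.29); it changed no other call, including Y_RNA between AGO2 genotypes (−0.21). Same-numbered time-course libraries did not deviate together (r = −0.067 to 0.050). Copies overlapping no feature turned 7SK on day 25 (0.0409). Without each family's most abundant copy, Y_RNA had −0.0846 on day 1, −0.0032 on day 11, −0.44 on day 25, −0.35 for day 25 against day 1 and −0.15 against day 9 (all of opposite sign), −0.0433 on day 6 and −0.29 on day 9 (calls lost) and −0.17 over days (call gained). Averaging AGO2 replicates 1 with 2 and 3 with 4 turned Y_RNA between genotypes (0.0069). Fitting each day alone, 7SK on days 1 (0.59), 6 (−0.41) and 9 (−0.34) and Y_RNA on day 11 (0.19) gained calls and 7SK on day 25 turned (0.0585).

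In the R1-suffixed libraries Y_RNA lost calls on days 6 (−0.15) and 9 (−0.32) and in control on day 11 (−0.20), as did 7SK there (0.74), and signs changed for the Ralgapb copy on days 3 (−0.29) and 6 (0.0769), Rny3 on days 6 (0.10) and 11 (0.067) and the Rny3 to Rny1 ratio on day 9 (−0.0342). In the R1-suffixed ESC libraries the Ralgapb copy gained a call on day 11 (1.88). The Rny3 to Rny1 ratio over days differed by −0.031 there, and by −0.18 in the libraries without suffix. These means are not over the same days, since no R1-suffixed library is of day 25. On that day the ratio differed by −0.86 in the libraries without suffix. R1-suffixed PGC libraries had 0, 0 and 36.1 RPM of 7SK and 1745, 464 and 2558 RPM of Y_RNA (E13.5 females, E13.5 males, E14.5 males). Rny3 in the AGO2 IP against total RNA turned with TMM scaling (1.95, 1.74) and relative to reads outside miRNA (2.44, 2.39); the latter ended the Y_RNA calls (control −0.0941, Dnmt1 KO −0.0916) and turned the 7SK difference between genotypes (−0.31), and TMM that of Y_RNA (−0.19).

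Leaving out single libraries gave, for 7SK, −0.70 to −0.0491 on day 3, −0.58 to −0.34 on day 6, −0.061 to 0.18 on day 11 and −0.11 to 0.10 on day 25, and for Y_RNA −0.13 to 0.0234 on day 3, −0.37 to −0.23 on day 6, −0.37 to −0.26 on day 9, −0.037 to 0.0144 over days and 0.54 to 0.67 for the AGO2 difference between genotypes. Among copies the ranges that crossed 0 were −0.23 to 0.0855 for Rny1 between AGO2 genotypes and −0.0277 to 0.0139 over days, −0.0566 to 0.0458 for the Ralgapb copy on day 1 and −0.24 to 0.0848 on day 25 against day 9, −0.0646 to 0.16 and −0.0736 to 0.10 for Rn7sk on days 11 and 25, and −0.29 to 0.0821, −0.094 to 0.075 and −0.0409 to 0.0194 for Rny3 on days 3, 6 and 11. The ratio ranged from −0.20 to 0.12 on day 3 and −0.0546 to 0.0552 on day 9. Alternatives for single copies, the ratio and the lists were chosen after seeing the data. The cause of these changes was not tested. Depth limits 7SK: 10 RPM is about 5 reads in the shallowest time-course library.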
